A study of Arabidopsis thaliana with 16 samples.

Results

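NatA is the enzyme complex that acetylates the N termini of many cytosolic proteins while they are being made at the ribosome. *NAA10* (AT5G13780) encodes its catalytic subunit and *NAA15* (AT1G80410) the auxiliary subunit, which anchors the complex at the ribosome. Lowering either transcript depletes the same complex, so arrays with little *NAA10* signal and arrays with little *NAA15* signal can be set against each other, gene by gene, over the rest of the transcriptome. *Arabidopsis* leaf RNA was hybridized to 16 Affymetrix arrays, of which 8 came from well-watered mutants. These 8 arrays were grouped by their own signals of the targeted genes, and the members of each set were thus chosen by a measured value and not by the label. An array was taken as NAA10-low where the log2 signal of *NAA10* was below 6 and as NAA15-low where that of *NAA15* was below 8.5. The rule gave 6 NAA10-low arrays, namely the 4 labelled amiNaa10 and those labelled amiNaa15 replicates 1 and 2, against 2 NAA15-low arrays, labelled amiNaa15 replicates 3 and 4.

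amiNaa10 plants express an artificial microRNA against *NAA10* and amiNaa15 plants one against *NAA15*, both in the Col-0 background and driven by the CaMV35S promoter, which is active in most tissues of the plant. The study selected 2 independent transgenic lines for each genotype and names a single one of each for its transcriptomes. For amiNaa15 replicates 1 and 2, which go against their label, the line cannot be taken from the study. Wild type of the same ecotype was the control. By the labels, plants grew on soil for 6 weeks with 8 h of light and 16 h of darkness, whereas the methods give more days for the plants with regular water and a slightly longer day. Of the wild type arrays, 4 control arrays came from well-watered plants, whereas 4 wild type drought arrays came from plants left without water for 10 days. The labels call the 4 arrays of a group biological replicates, and p-values measure the spread between such arrays. The labels of amiNaa15 replicates 3 and 4 speak of mutants in the plural and those of replicates 1 and 2 of a mutant in the singular. No other label tells the 2 pairs apart, so that growth, harvest or line cannot be told apart from the set.

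The targeted genes define the sets and are described here without a test. *NAA10* gave log2 signals of 5.16, 5.28, 4.92 and 5.01 on the amiNaa10 arrays, with 5.16 and 5.06 for amiNaa15 replicates 1 and 2, against 6.89 and 6.86 on the NAA15-low arrays and 6.58 to 6.88 on the wild type control arrays. *NAA15* gave 9.55, 9.87, 9.53 and 9.46 on the amiNaa10 arrays, with 9.68 and 9.54 for amiNaa15 replicates 1 and 2, against 7.97 and 7.80 on the NAA15-low arrays and 8.996 to 9.195 on the wild type control. Thus the arrays labelled amiNaa15 replicates 1 and 2 went against their label in both genes. The thresholds lay in wide gaps: for *NAA10* the array just inside the limit had 5.28 and the nearest mutant array outside it 6.86, and for *NAA15* these values were 7.97 and 9.46. *NAA10* was 1.78 log2 units lower and *NAA15* 1.72 units higher on the NAA10-low than on the NAA15-low arrays. Of the subunits of other N-terminal acetyltransferases, 3 were read here. *TCU2* (AT5G58450), the auxiliary subunit of NatB, differed by 0.15, and in NatC *ATMAK3* (AT2G38130), the catalytic subunit, differed by 0.00 and *MAK10* (AT2G11000) by -0.03.

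**Figure D1:**
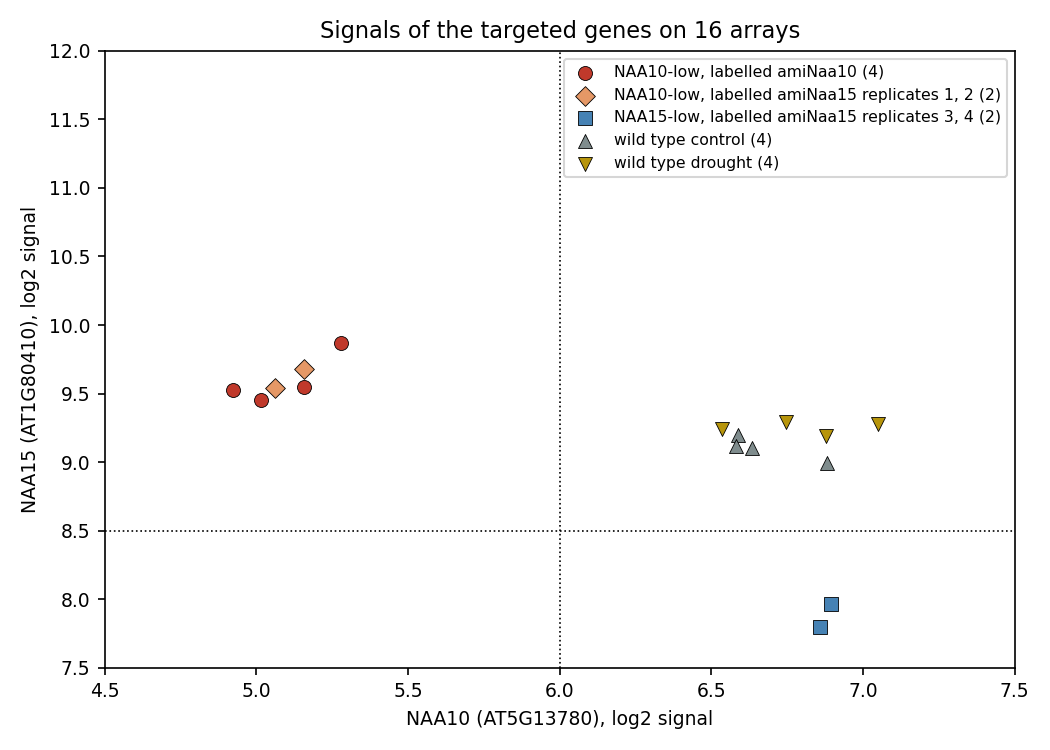
Log2 signal of *NAA10* (horizontal axis) against log2 signal of *NAA15* (vertical axis) on each of the 16 arrays, one point per array. Dotted lines mark the limits of 6 and 8.5. The 6 NAA10-low arrays, among them 2 labelled amiNaa15, lie to the left of the vertical line and the 2 NAA15-low arrays below the horizontal line, whereas all 8 wild type arrays lie above and to the right.

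Outside the targeted genes the sets were described over 27825 genes by the difference of their mean log2 signals, NAA10-low minus NAA15-low. A gene was counted where this difference exceeded 1.5-fold and no array of one set overlapped the other. By this rule 346 genes (1.24% of all) were higher and 263 genes (0.945% of all) lower on the NAA10-low arrays. Since the sets come from the arrays' own values, no p is given for these counts. The counted differences were mostly modest, with a median of 0.77 log2 units among the higher and -0.76 among the lower genes, and 81 and 53 genes exceeded 2-fold. When amiNaa15 replicates 1 and 2 were left out, 444 genes were higher and 452 lower, and 545 of the 609 genes counted with all 8 arrays were counted again in the same direction. Each NAA15-low array had far more weight. The rule on overlap is also easier to meet against 1 array than against 2. With amiNaa15 replicate 3 as the single NAA15-low array (replicate 4 left out), 1112 genes were higher and 1263 lower, whereas with replicate 4 alone (replicate 3 left out) 635 were higher and 434 lower.

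The arrays labelled amiNaa15 were further compared with amiNaa10 as 2 separate pairs, each with 4 arrays against 2. Against replicates 3 and 4, 896 genes passed the rule, 444 higher and 452 lower in amiNaa10. Against replicates 1 and 2, 654 genes passed it, 273 higher and 381 lower in amiNaa10. The 896 genes were then read on the arrays that had no part in choosing them. Replicate 1 was nearer to the amiNaa10 mean than to the mean of replicates 3 and 4 for 694 genes (77.5%) and replicate 2 for 503 genes (56.1%), with median positions of 0.85 and 0.60 on a scale where 0 is the mean of replicates 3 and 4 and 1 the amiNaa10 mean. The wild type control arrays were nearer to amiNaa10 for between 223 and 441 of the 896 genes, with median positions between -0.03 and 0.49. Replicate 1 therefore lay closest to amiNaa10 over these genes and replicate 2 between the means, above all 4 control arrays. Over all genes, the NAA10-low arrays correlated with one another at 0.984 to 0.991 and with the NAA15-low arrays at 0.974 to 0.990, and amiNaa15 replicates 3 and 4 with each other at 0.987.

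**Figure D2:**
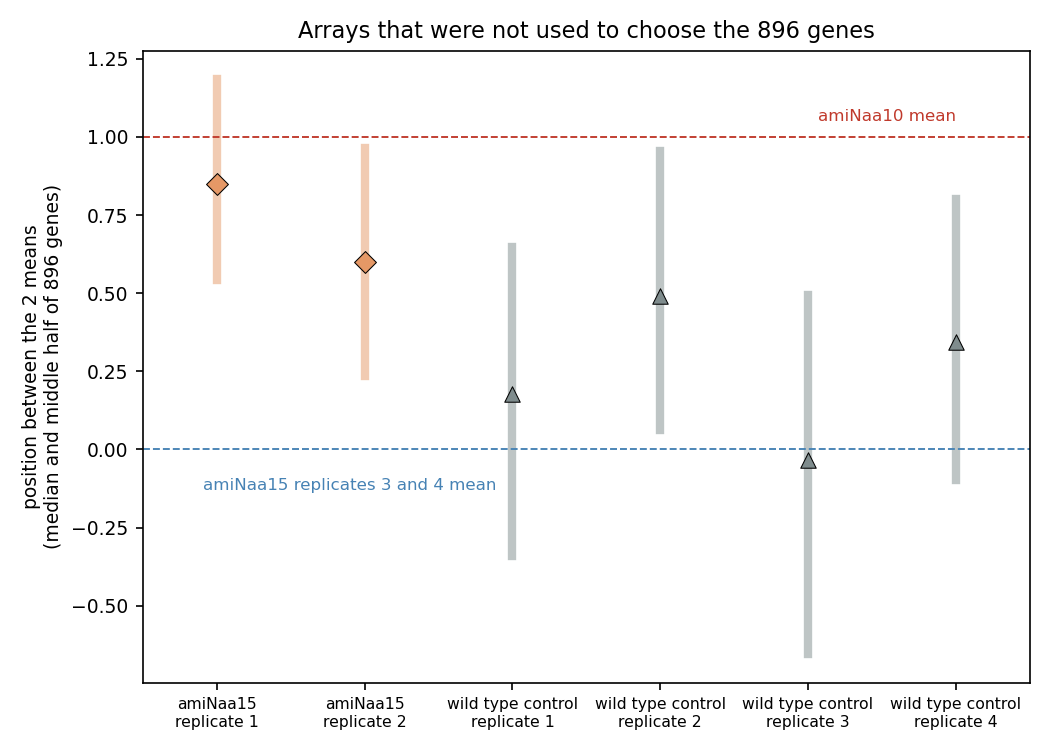
Position of arrays between the mean of amiNaa15 replicates 3 and 4 (0, lower dashed line) and the amiNaa10 mean (1, upper dashed line) over 896 genes chosen on those 6 arrays. Points are medians and bars run between the quartiles of the genes, for each of 2 arrays labelled amiNaa15 and 4 wild type control arrays. amiNaa15 replicate 1 has the highest median (0.85) and wild type control replicate 3 the lowest (-0.03).

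As a test on part of the arrays, amiNaa10 (4 arrays) was compared with the arrays labelled amiNaa15 replicates 3 and 4 with limma, in a fit that left out amiNaa15 replicates 1 and 2 and kept the wild type arrays for the estimate of the spread. Replicates 1 and 2 were left out because of their *NAA10* and *NAA15* signals, so the choice of arrays rested on measured values of the targeted genes, and each p holds only given that choice. Calls required an adjusted p under 0.05 together with a difference beyond 1.5-fold. Of 27823 genes tested, 4 (0.0144%) were called lower in amiNaa10 and none (0%) higher. Without adjustment, 822 genes would have met the same limits. The 4 genes were *ACA3* (AT5G04180), *MC9* (AT5G04200), AT5G04170 and *MRD1* (AT1G53480). AT5G04170 has no symbol and is named outside the rule for named genes. All 4 calls were lost when the fit held only the arrays of amiNaa10 and amiNaa15 replicates 3 and 4, with adjusted p between 0.0642 and 0.344. In the comparison by labels alone, with all 4 arrays labelled amiNaa15, 0 genes were called by limma against amiNaa10 (lowest adjusted p = 0.201), and 358 met the limits without adjustment.

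*ACA3* encodes an alpha carbonic anhydrase, an enzyme that interconverts carbon dioxide and bicarbonate. Its log2 signal was 3.61, 2.71, 3.15 and 3.20 on the amiNaa10 arrays and 3.17 and 3.27 on amiNaa15 replicates 1 and 2, against 5.43 and 6.27 on the NAA15-low arrays and 3.18 to 3.56 on the wild type control. The NAA15-low arrays were thus alone in their high signal, and the NAA10-low arrays overlapped the wild type. *ACA3* was 2.68 ± 0.24 (SE) log2 units lower in amiNaa10 than on amiNaa15 replicates 3 and 4 (limma adjusted p = 0.00042). Set against the wild type control, amiNaa10 differed by -0.19 (adjusted p = 0.632) and amiNaa15 replicates 3 and 4 by 2.50 ± 0.24 (adjusted p = 0.00142), 2 comparisons that share the 4 control arrays. The table holds no detection call, and where the low signals of *ACA3* are background, its fold is understated.

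*MC9* encodes metacaspase 9, a cysteine-dependent protease with a known part in the clearing of dying xylem cells. It gave 4.63, 4.57, 4.39 and 4.48 on the amiNaa10 arrays and 4.59 and 4.39 on amiNaa15 replicates 1 and 2, against 5.94 and 6.75 on the NAA15-low arrays and 4.11 to 4.61 on the wild type control. Again only the NAA15-low arrays stood apart. The difference between amiNaa10 and amiNaa15 replicates 3 and 4 was -1.83 ± 0.24 (SE, adjusted p = 0.0233). Against the wild type control it was 0.12 in amiNaa10 (adjusted p = 0.779) and 1.95 ± 0.24 on amiNaa15 replicates 3 and 4 (adjusted p = 0.00771). AT5G04170 lay between 7.60 and 7.95 on the 6 NAA10-low arrays, against 8.63 and 8.89 on the NAA15-low arrays and 7.73 to 8.07 on the wild type control. Its difference between amiNaa10 and amiNaa15 replicates 3 and 4 was -0.998 ± 0.134 (adjusted p = 0.0233). The calls of *MC9* and AT5G04170 depended on single arrays, since their adjusted p ranged from 0.02 to 0.303 and from 0.0666 to 0.303 when each of the 6 arrays was left out in turn, and with the replicate number as a block they were 0.0927 and 0.158. Without moderation of the variance *MC9* was not called either (adjusted p = 0.304). *ACA3* was called in each of these fits, with adjusted p of at most 0.0178 when an array was left out.

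These 3 of the 4 called genes are neighbours on chromosome 5. In the order of the RefSeq annotation AT5G04170, *ACA3*, *PKS4* and *MC9* follow one another. *PKS4* (AT5G04190), a phytochrome kinase substrate of phototropic signalling, lay between them at 3.60 to 4.36 on the NAA10-low arrays, against 4.67 and 4.97 on the NAA15-low arrays and 3.60 to 4.05 on the wild type control. Its difference of -0.90 between amiNaa10 and amiNaa15 replicates 3 and 4 did not pass (adjusted p = 0.378). The next gene on the side of *MC9*, AT5G04210, differed between the sets by 0.31 and was not counted. On the other side AT5G04160 was counted as lower by 0.83, but in another pattern: it was at 4.32 to 5.33 on the NAA10-low arrays, against 5.53 and 6.06 on the NAA15-low arrays and 5.67 to 6.21 on the wild type control, so that here the NAA15-low arrays were at or near the level of the wild type. *BHLH101*, the next gene beyond it, differed by 0.12. Along the whole genome, a stretch with at least 3 genes counted in one direction within 5 measured neighbours occurred 2 times. The other one was on chromosome 1 and held *CYP76C6*, *CYP76C5* and AT1G33760, all higher on the NAA10-low arrays, by 1.03, 1.39 and 0.65. *ACA3* and AT5G04170 overlap in the annotation, so that their signals may share transcripts. *PKS4*, AT5G04160 and the genes of the second stretch were chosen after their values were seen.

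*MRD1* (AT1G53480) showed the reverse arrangement. It gave 3.77, 4.04, 3.72 and 3.76 on the amiNaa10 arrays and 3.41 and 3.65 on amiNaa15 replicates 1 and 2, against 6.20 and 5.74 on the NAA15-low arrays, 5.60 to 6.09 on the wild type control and 5.88 to 6.30 on the drought arrays. All 6 NAA10-low arrays were low and all other 10 arrays of the series high, without overlap. amiNaa10 was 2.15 ± 0.18 (SE) log2 units below amiNaa15 replicates 3 and 4 (limma adjusted p = 0.000416). Against the wild type control the difference was -2.03 ± 0.15 in amiNaa10 (adjusted p = 6.3e-05) and 0.11 ± 0.18 on amiNaa15 replicates 3 and 4 (adjusted p = 0.851). The 2 arrays that the test did not use, amiNaa15 replicates 1 and 2, lay below the lowest amiNaa10 array. *MRD1* was called whichever of the 6 arrays was left out, with adjusted p of at most 0.0166. *HEI10* (AT1G53490), known as a factor of meiotic crossing over, overlaps *MRD1* in the annotation and lay at 4.19 to 4.92 on the NAA10-low arrays, against 5.43 and 5.62 on the NAA15-low arrays and 5.29 to 5.54 on the wild type control. It was not called between amiNaa10 and amiNaa15 replicates 3 and 4 (difference -0.89, adjusted p = 0.451), and it was chosen after its values were seen. The signals of the overlapping genes cannot be told apart where probes lie in both.

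**Figure D3:**
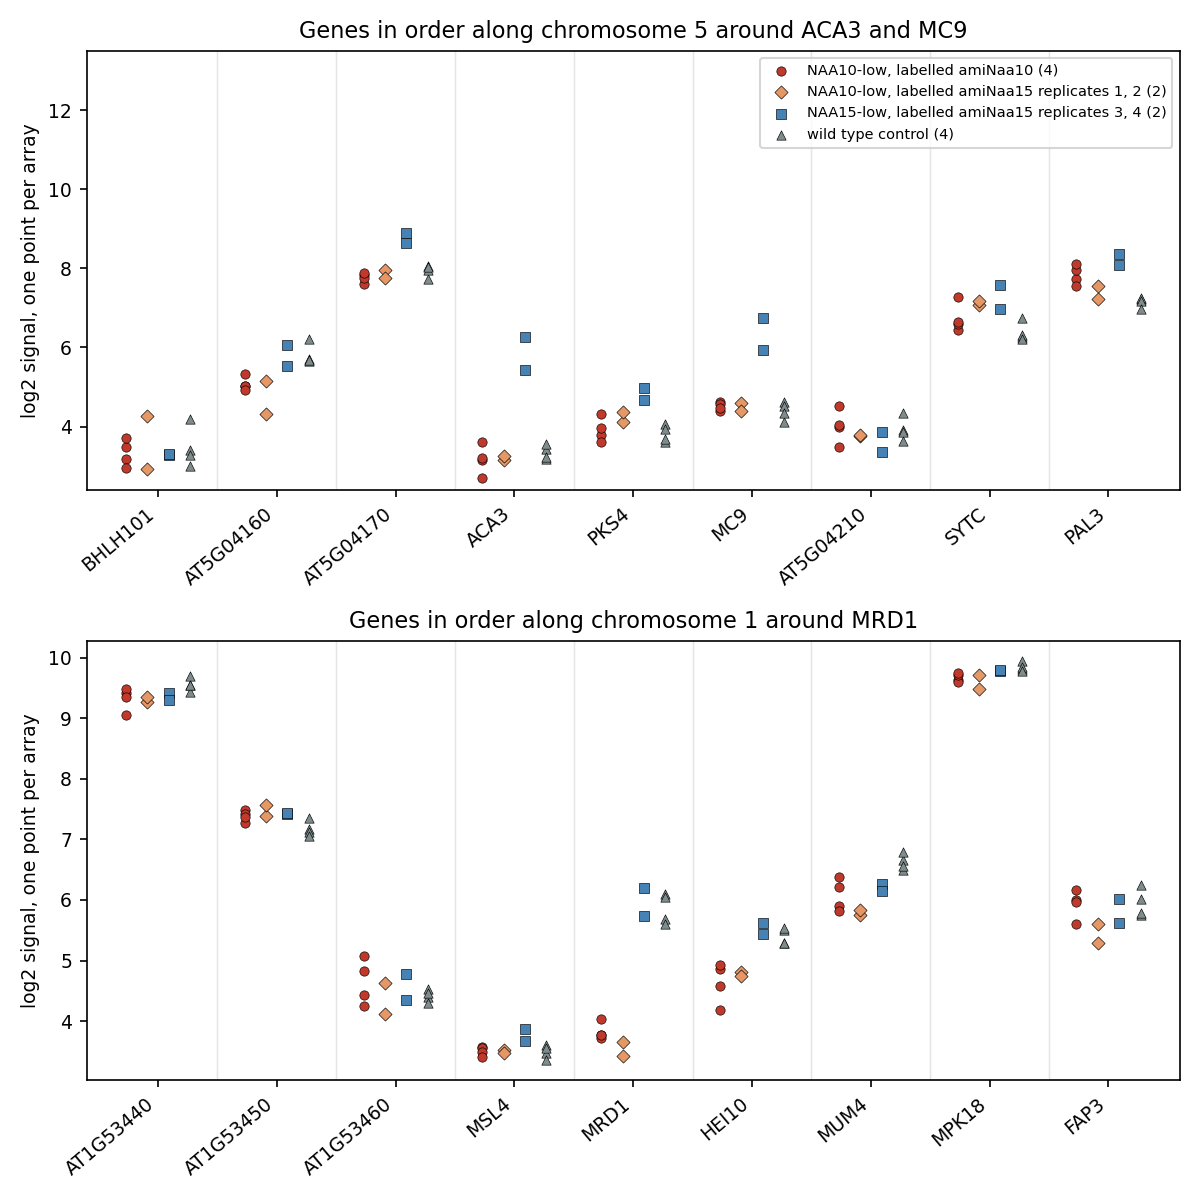
Log2 signals of neighbouring genes, in annotation order, on chromosome 5 around *ACA3* and *MC9* (upper panel) and on chromosome 1 around *MRD1* (lower panel). Each point is 1 array, with the NAA10-low arrays left of the NAA15-low and wild type control arrays. The NAA15-low arrays alone are high for *ACA3* (5.43 and 6.27) and *MC9* (5.94 and 6.75), and the 6 NAA10-low arrays alone are low for *MRD1* (3.41 to 4.04).

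Genes known from pathogen defence were among those with the largest differences on the side higher in the NAA10-low arrays. *PR1* (AT2G14610), the pathogenesis-related protein used as a marker of salicylate signalling, gave 8.03, 9.74, 8.20 and 8.55 on the amiNaa10 arrays and 9.09 and 8.44 on amiNaa15 replicates 1 and 2, against 5.36 and 7.19 on the NAA15-low arrays. The sets did not overlap, and the difference of 2.40 log2 units (5.27-fold) was the largest among the higher genes with a symbol and a signal of at least 4 in the higher set. The NAA15-low arrays were themselves far apart. The difference was 1.48 without amiNaa15 replicate 3 and 3.31 without replicate 4. The wild type control lay at 5.55, 6.99, 5.25 and 7.53, so that both NAA15-low arrays were within its range. In the test of amiNaa10 against amiNaa15 replicates 3 and 4 the difference of *PR1* was 2.35 ± 0.68 (SE, adjusted p = 0.452).

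*BG3*, a beta-1,3-glucanase of the kind that attacks fungal walls, was at 6.50 to 7.92 on the NAA10-low arrays, against 4.86 and 6.42 on the NAA15-low arrays. *CHI*, annotated as a chitinase, was at 7.16 to 8.59 on the NAA10-low arrays, against 5.80 and 6.57 on the NAA15-low arrays. *UGT76B1*, a glucosyltransferase that inactivates defence signals, was at 4.21 to 5.48, against 3.36 and 3.10. Here both NAA15-low arrays were low, and the wild type control spread from 2.63 to 5.47. *YLS9*, a relative of the defence gene *NDR1*, differed by 1.86, *cwINV6*, of the cell wall invertase family, by 1.78, and *MSRB8*, a reductase of oxidized methionine, by 1.59. *BIP3*, a chaperone of the endoplasmic reticulum, was at 6.98 to 7.90 on the NAA10-low arrays, against 5.14 and 6.85 on the NAA15-low arrays, and differed by 1.54. *LUP5* (AT1G66960), an oxidosqualene cyclase of triterpene metabolism, was at 7.71 to 9.54, against 5.68 and 7.49. On the wild type control arrays it was at 3.33 to 5.95, so that amiNaa15 replicate 4 was above all control arrays and replicate 3 among them.

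*EDA36*, also annotated as a serine hydroxymethyltransferase, differed by 1.63, with the NAA15-low arrays (3.28 and 3.47) inside the range of the wild type control (2.67 to 3.77). In the test of amiNaa10 against amiNaa15 replicates 3 and 4, none of these 10 genes passed, with adjusted p between 0.378 (*EDA36*) and 0.658 (*MSRB8*). Against the wild type control, amiNaa10 was called higher for *PR1*, *LUP5*, *cwINV6*, *BG3*, *EDA36* and *BIP3*. amiNaa15 replicates 3 and 4 were called for none of the 10. Over all genes, 2.49% were called higher in amiNaa10 and 0.212% on amiNaa15 replicates 3 and 4. The 10 genes were chosen for high signals on a set that holds the amiNaa10 arrays, and this choice favours such a pattern of calls. An effect called for one set and not for the other is no test of a difference between them, and both share the control arrays.

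Defence genes were also described as a fixed list of 24 genes of salicylate synthesis, perception and response. Of these, 6 were counted as higher on the NAA10-low arrays and 0 as lower, against 1.24% and 0.945% of all genes. The median difference was 0.39, beside 0.00 over all genes, and 23 of the 24 genes were above 0. None was called in amiNaa10 against amiNaa15 replicates 3 and 4. The mean signal of the list was 6.85 to 7.24 on the NAA10-low arrays, against 6.24 and 6.64 on the NAA15-low arrays, and the wild type control spread from 5.93 to 7.39, beyond both sets. With 1 NAA15-low array left out, 3 genes (without amiNaa15 replicate 3) or 11 genes (without replicate 4) were counted. Over all 27825 genes these settings counted 635 and 1112 as higher. Besides *PR1* the 6 genes were those for isochorismate synthase *ICS1* and *PBS3* of salicylate synthesis, the regulators *SARD1* and *NIMIN1*, and *ALD1* of pipecolate synthesis. *ICS1* was at 6.87 to 7.51 on the NAA10-low arrays, against 6.18 and 6.84 on the NAA15-low arrays, a difference of 0.66. *SARD1* differed by 1.04, *PBS3* by 0.63 and *NIMIN1* by 1.23. *ALD1* differed by 1.49, with 6.43 to 7.42 on the NAA10-low arrays against 4.94 and 5.77 on the NAA15-low arrays, and 3.99 to 7.34 on the wild type control.

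**Figure D4:**
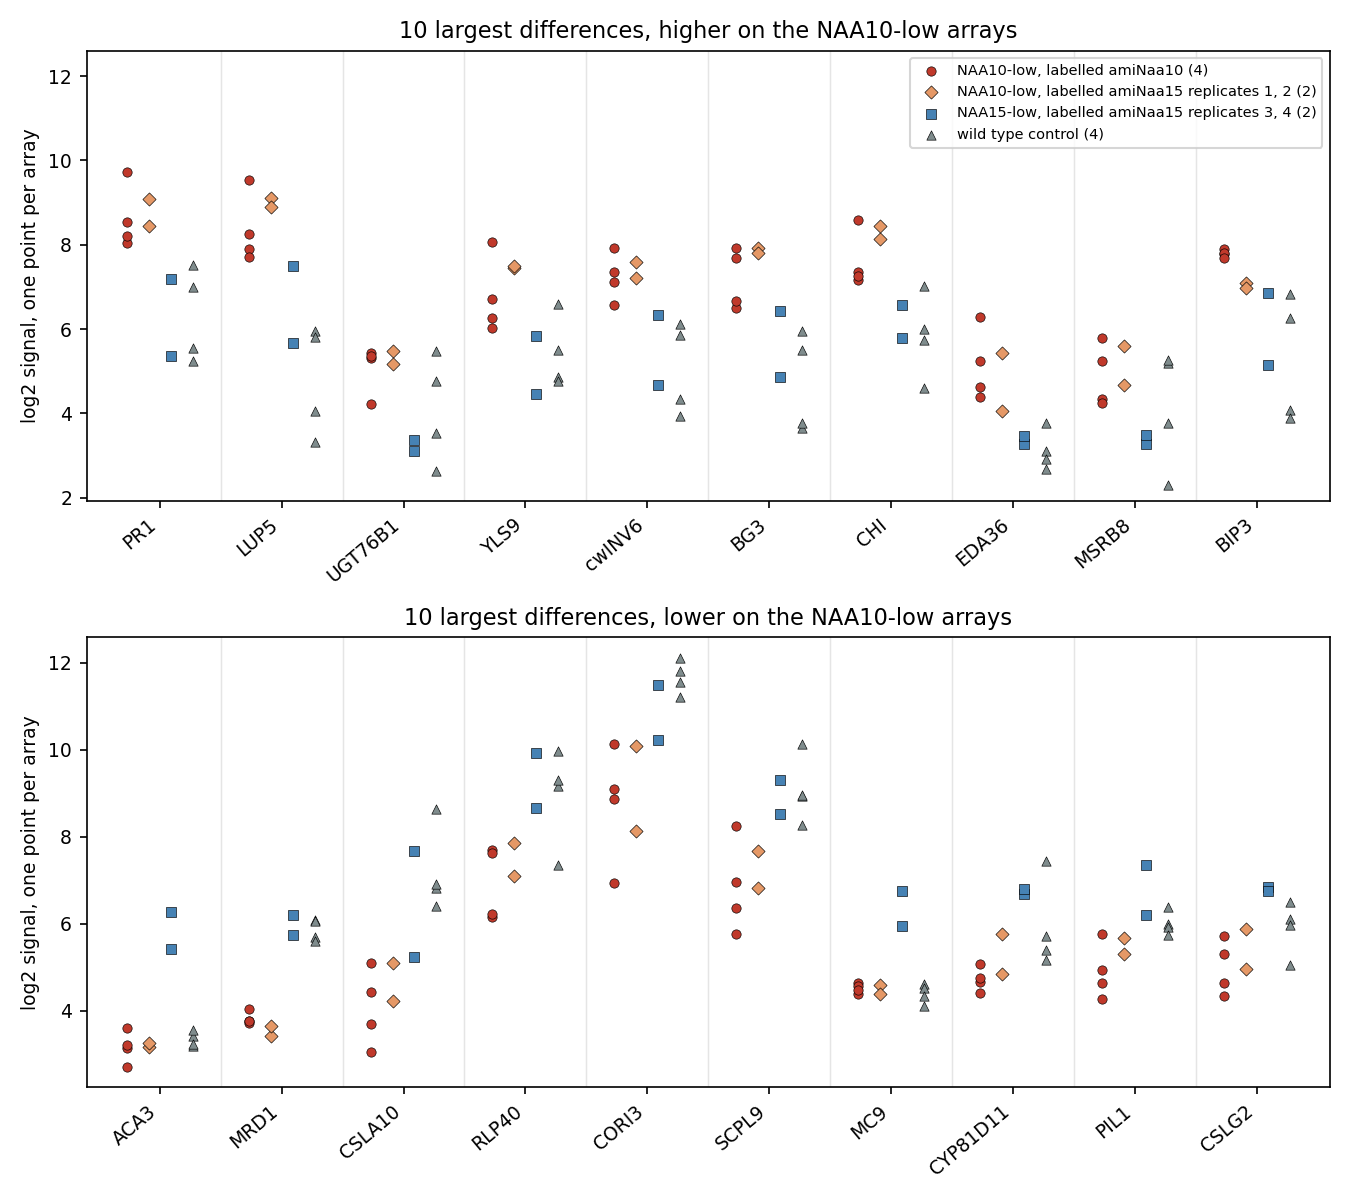
Log2 signals of the 10 named genes with the largest difference in each direction between NAA10-low and NAA15-low arrays, one point per array. Upper panel, genes higher on the NAA10-low arrays, and lower panel, genes lower there, with the wild type control beside them. The sets do not overlap for any of the 20 genes, as the rule requires, and for *PR1* the NAA15-low arrays (5.36 and 7.19) lie within the wild type control (5.25 to 7.53).

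The genes that were lower on the NAA10-low arrays held, after *ACA3* and *MRD1*, genes of several functions. *CSLA10* (AT1G24070), of the cellulose synthase-like family A that makes mannans, gave 3.04, 3.70, 5.09 and 4.43 on the amiNaa10 arrays and 4.23 and 5.09 on amiNaa15 replicates 1 and 2, against 7.68 and 5.23 on the NAA15-low arrays and 6.40 to 8.63 on the wild type control. One NAA15-low array lay just above the highest NAA10-low arrays and the other within the wild type. The difference was -2.19, or -0.97 without amiNaa15 replicate 3 and -3.42 without replicate 4. *CORI3*, a cystine lyase induced by jasmonate, was at 6.94 to 10.1 on the NAA10-low arrays, against 11.5 and 10.2 on the NAA15-low arrays and 11.2 to 12.1 on the wild type control. *RLP40*, a receptor-like protein, differed by -2.17 and *SCPL9*, a serine carboxypeptidase-like protein, by -1.95. For both, the NAA15-low arrays were in the range of the wild type control.

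*CYP81D11* (AT3G28740), a cytochrome P450 induced by cis-jasmone and by foreign compounds, differed by -1.82, with 4.40 to 5.76 on the NAA10-low arrays against 6.68 and 6.80 on the NAA15-low arrays and 5.16 to 7.44 on the wild type control. *PIL1*, a transcription factor of the shade response, was at 4.27 to 5.77 on the NAA10-low arrays, against 7.34 and 6.21 on the NAA15-low arrays and 5.73 to 6.39 on the wild type control. *CSLG2*, of the cellulose synthase-like family G, differed by -1.67, with 4.33 to 5.88 against 6.85 and 6.76. The NAA15-low arrays lay above all 4 wild type control arrays in *CSLG2*. In the test of amiNaa10 against amiNaa15 replicates 3 and 4, adjusted p for *CSLA10*, *RLP40*, *CORI3*, *SCPL9*, *CYP81D11*, *PIL1* and *CSLG2* lay between 0.292 and 0.578. The largest difference of all counted genes was that of AT1G14250, which has no symbol and was chosen after its values were seen. It was 3.11 lower on the NAA10-low arrays, where it lay at 5.54 to 9.22, against 10.8 and 9.67 on the NAA15-low arrays and 9.47 to 11.6 on the wild type control.

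Some counted members of other lists had an array pattern of their own. *SULTR1;2*, a high-affinity sulfate transporter, was the only gene counted among 23 of sulfate assimilation and starvation, against 1.24% of all genes counted as higher. It gave 5.34, 5.71, 5.70 and 5.70 on the amiNaa10 arrays and 5.72 and 5.51 on amiNaa15 replicates 1 and 2, against 4.59 and 4.93 on the NAA15-low arrays and 4.41 to 4.72 on the wild type control. The 6 arrays lay close together, above all other mutant and control arrays, and the difference of 0.85 ± 0.16 (SE) between amiNaa10 and amiNaa15 replicates 3 and 4 did not pass the test (adjusted p = 0.292). Without amiNaa15 replicate 4, 3 genes of this list were counted as lower, against 1263 of all 27825 genes. *XTH33*, of the xyloglucan endotransglucosylase/hydrolases that remodel cell walls, was likewise high on the 6 arrays, with 5.72 to 7.47 on the NAA10-low arrays against 4.63 and 5.63 on the NAA15-low arrays and 4.73 to 4.90 on the wild type control. *EXPA4*, an expansin, was lower by 0.79. *XTH33* and *EXPA4* were the genes counted among 19 of cell wall loosening, against 1.24% of all genes higher and 0.945% lower.

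In the list of leaf senescence, 3 of 12 genes were counted as lower and 1 as higher, against 0.945% and 1.24% of all genes. *PPH*, which removes phytol during chlorophyll breakdown, was lower by 0.67, the senescence regulator *NAP* by 0.60 and the cytosolic glutamine synthetase *GLN1-4* by 1.12, whereas the NAC factor *JUB1*, known to delay senescence, was higher by 1.03. None of the 4 was called between amiNaa10 and amiNaa15 replicates 3 and 4. Among 15 genes of sugar starvation, *BCAT2*, a branched-chain amino acid transaminase, was counted as lower by 1.53. Among 17 heat shock genes, *HSP90.1* was higher by 0.96 and the heat shock factor *HSFB2A* lower by 0.64, beside *BIP3*.

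Among 26 genes of jasmonate and wounding, 24 were below 0 with a median difference of -0.50, but *CORI3* alone was counted. Over all genes, 0.945% were counted as lower. The mean signal of this list was 6.57 to 7.53 on the amiNaa10 arrays and 7.85 and 8.24 on amiNaa15 replicates 1 and 2, against 8.74 and 7.48 on the NAA15-low arrays and 8.46 to 9.64 on the wild type control. NAA10-low and NAA15-low arrays thus overlapped, and 3 of the 4 arrays labelled amiNaa15 lay above all amiNaa10 arrays. Without amiNaa15 replicate 4, 20 of the 26 genes were counted as lower, and without replicate 3, 1 gene. Over all 27825 genes these settings counted 1263 and 434 as lower. amiNaa10 was called lower than the wild type control (2.85% of all genes called lower, 2.49% higher) for 18 of the 26 genes and amiNaa15 replicates 3 and 4 (0.173% of all genes called lower, 0.212% higher) for 0, with median differences of -1.86 and -0.91. The second comparison rests on 2 mutant arrays and the first on 4, so that 18 beside 0 is no test of a difference between them.

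Among 28 genes of abscisic acid and drought, 26 were below 0 with a median of -0.36. *LTP3*, a lipid transfer protein, was counted as lower by 1.57 and *RD29B*, a target of abscisic acid signalling, as higher by 1.08. Over all genes, 0.945% were counted as lower and 1.24% as higher. The number counted as lower was 9 without amiNaa15 replicate 4 and 4 without both arrays that go against their label. Beside these stood 1263 and 452 of all 27825 genes. *LTP3* was at 2.52 to 4.16 on the NAA10-low arrays, against 5.91 and 4.42 on the NAA15-low arrays and 6.55 to 7.88 on the wild type control, so that the NAA15-low arrays lay between. *LEA7*, a late embryogenesis abundant protein used as an abscisic acid marker, had signals between 1.304 and 1.886 on all 8 mutant arrays. The wild type control lay at 1.217 to 1.696. Where such low signals are background, a change cannot be seen. By quantitative PCR the study reported far more *LEA7* transcript in its most strongly depleted amiNaa10 line than in wild type. Among 22 genes of flavonoids and anthocyanins, 17 were below 0 with a median of -0.56 and none was counted. This rested on single arrays. Without amiNaa15 replicate 4, 13 genes were counted as lower (median -0.89), and without replicate 3, 1 gene (median -0.35). Without amiNaa10 replicate 3, 7 genes were. Over all 27825 genes these settings counted 1263, 434 and 377 as lower. The mean signal of this list was 4.29 to 5.85 on the NAA10-low arrays, against 6.24 and 5.42 on the NAA15-low arrays and 6.16 to 6.99 on the wild type control. Among 19 genes of phenylpropanoids, *CAD5*, a cinnamyl alcohol dehydrogenase of lignin synthesis, was counted as lower by 0.70, and the median difference was -0.01.

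In 4 further lists no gene was counted on the 8 arrays. By their median difference, beside 0.00 over all genes, these were 24 proteasome subunits (0.03), 24 circadian clock genes (-0.04), 23 genes of light harvesting and carbon fixation (-0.01) and 22 glucosinolate genes (-0.06). Without amiNaa15 replicate 4, 6 glucosinolate genes and 2 clock genes were counted as lower, against 1263 of all 27825 genes. The median of the glucosinolate genes was then -0.30, against 0.13 without replicate 3. Some genes were named because the study or an earlier description of these data names them. Of these, *MYB77* and *ARF7*, regulators of the auxin response, differed by 0.35 and 0.19 and were not counted. *CSLA01* and *NUDT24* differed by -2.27 and -1.83 without being counted, because the sets overlapped. These differences were -0.51 and -0.87 without amiNaa15 replicate 3 and -4.03 and -2.79 without replicate 4. *CSLA01* spread over 2.88 to 6.28 on the NAA10-low arrays, against 8.48 and 4.96 on the NAA15-low arrays, with 8.51 to 10.8 on the wild type control.

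**Figure D5:**
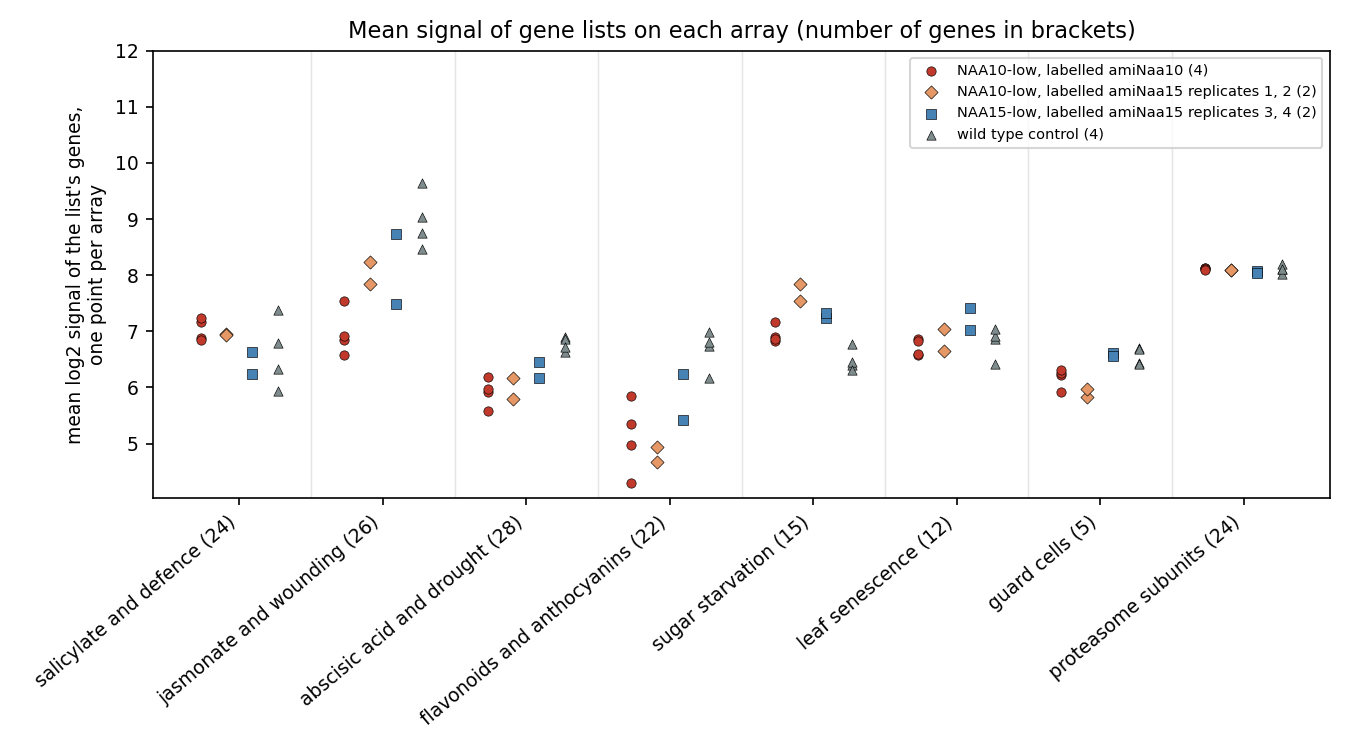
Mean log2 signal of 8 gene lists on each array, one point per array, with the number of genes in brackets. The NAA10-low arrays (6.85 to 7.24) lie above the NAA15-low arrays (6.24 and 6.64) for salicylate and defence, whereas the sets overlap for jasmonate and wounding, and the wild type control spreads beyond both for salicylate and defence (5.93 to 7.39).

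The tissue was leaf in all groups. Root markers averaged 3.59 to 3.78 on the NAA10-low arrays, against 3.77 and 3.92 on the NAA15-low arrays, with 3 of 5 below 3 on all 8 arrays. Markers of flower and seed averaged 2.94 to 3.09, against 3.01 and 3.03, with 5 of 7 below 3 on all 8. Epidermal and vascular markers overlapped between the sets. The mean of the guard cell markers, in contrast, separated them. It was 5.83 to 6.31 on the NAA10-low arrays, against 6.55 and 6.61 on the NAA15-low arrays and 6.42 to 6.71 on the wild type control. All 5 (*MYB60*, *FAMA*, *KAT1*, *GORK* and *SLAC1*) had lower means on the NAA10-low arrays, but the sets overlapped for *MYB60* and *KAT1*. Only *SLAC1*, the guard cell anion channel, was counted as lower (by 0.88), against 0.945% of all genes. None of the 5 was called between amiNaa10 and amiNaa15 replicates 3 and 4. In leaf RNA, fewer cells of a type and less RNA per cell cannot be told apart. The part of this difference in the list mean in the other results was not tested.

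For the counted genes the wild type control lay nearer to the NAA15-low than to the NAA10-low arrays more often than not. Among the 346 higher genes its mean was nearer to the NAA15-low mean in 254 and nearer to the NAA10-low mean in 92. Among the 263 lower genes these numbers were 160 and 103. The wild type drought mean lay likewise, with 254 and 92 of the higher and 170 and 93 of the lower genes. The wild type control mean lay between both sets for 171 of the higher and 144 of the lower genes, and beyond the NAA15-low mean for 149 and 88. Against the wild type control, 1485 genes were called in amiNaa10, 693 higher and 792 lower, and 107 on amiNaa15 replicates 3 and 4, 59 higher and 48 lower. The second comparison rests on 2 arrays, and without amiNaa15 replicate 4 it called 0 genes.

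Within the NAA10-low set, amiNaa10 was set against the arrays labelled amiNaa15 replicates 1 and 2. Of 27825 genes, 273 were higher and 381 lower in amiNaa10 by the rule of 1.5-fold without overlap. A split of so few arrays can yield such genes without any effect of the label, and this was not tested. The genes that follow have some of the largest differences between the labels inside the set. All of them are lower in amiNaa10, and they were chosen after their values were seen. *JAZ10* (AT5G13220), a repressor of the jasmonate response, gave 4.78, 4.75, 5.88 and 4.98 on the amiNaa10 arrays and 8.45 and 7.41 on amiNaa15 replicates 1 and 2, against 7.98 and 5.34 on the NAA15-low arrays. amiNaa10 was thus lower by 2.83 than the other 2 NAA10-low arrays. *TPS04* (AT1G61120), a terpene synthase of volatiles released on wounding, was lower in amiNaa10 by 2.45, with 4.00 to 5.97 there against 6.76 and 8.06 on amiNaa15 replicates 1 and 2. *Prx37* (AT4G08770), a cell wall peroxidase, was at 3.05 to 5.36 on the amiNaa10 arrays, against 6.40 and 6.31 on amiNaa15 replicates 1 and 2, 3.45 and 3.18 on the NAA15-low arrays and 2.90 to 3.45 on the wild type control. In *Prx37* these 2 arrays were above all other mutant and control arrays.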

How the data were processed

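Expression was measured in leaf RNA of 16 samples, 4 per group, with Affymetrix AraGene-1_0-st arrays. The authors deposited log2 signals per gene, corrected for background by RMA, quantile normalized and summarized with a custom chip definition (version 16) built on TAIR gene models. The sorted values of all arrays were checked to be identical, so a change common to all genes cannot be seen. Scanner files were not used here. Of 27827 genes, 27241 loci were found in the RefSeq table (TAIR10.1), which gave symbols and the order of neighbours. No coordinates are printed, because the TAIR release behind the signals is not given in the sources used here.

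Groups were taken from the labels. The sets NAA10-low and NAA15-low were formed from the arrays' own signals (limits 6 and 8.5) and compared by description only. Tests were two-sided moderated tests of limma 3.58.1 (R 4.3.3), either on all 16 arrays under their labels or on 14 arrays (10 residual degrees of freedom), without amiNaa15 replicates 1 and 2, which were left out for their *NAA10* and *NAA15* signals. Benjamini-Hochberg adjustment ran over all genes except *NAA10*, *NAA15* and 2 genes of constant signal. The scripts were tested on simulated data. Members, lists and rules were chosen with earlier results of these data known. Named genes are the 10 largest counted differences per direction with a symbol and a mean signal of at least 4 in the higher set. Called genes with a symbol, counted members of the lists and acetyltransferase subunits were added. So were 6 genes that the study or an earlier description of these data names, and others are marked. Of 352 list genes, 337 had their symbol paired with the locus and 15 were left out, 6 of them acetyltransferase loci.

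The alternatives were the replicate block, no and a 2-fold minimum, the 1.5-fold minimum alone, unmoderated variances, only the groups compared, low genes left out, cyclic loess, array weights, amiNaa15 replicates 1 and 2 as a group of their own or left out, and each array left out. For the lists, leaving out arrays was added after seeing the data. Python 3.11.15 with pandas 2.3.3 served for tables, and matplotlib 3.10.9 for figures.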

Additional observations from a re-analysis of the deposited data

Results flagged for a closer look

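In *UGT76B1* the array of amiNaa10 replicate 3 lay apart from the other NAA10-low arrays, with 4.21 against 5.17 to 5.48 on the others. It was the only such array in 100 combinations of a gene and a group checked with Dixon's criterion, which by chance marks about 1 in 20 groups.

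For 4 genes the effects against the same wild type control were called different in the direct comparison of amiNaa10 with amiNaa15 replicates 3 and 4. The difference was -2.68 log2 units for *ACA3*, -1.83 for *MC9* and -0.998 for AT5G04170, where the NAA15-low arrays stood above all other arrays, and -2.15 for *MRD1*, where the NAA10-low arrays stood below them. All 4 calls were lost when the fit held only the arrays compared. Those of *MC9* and AT5G04170 were also lost whichever amiNaa10 array was left out. The calls hold only given the choice of arrays by their *NAA10* and *NAA15* signals. The values on the 2 arrays that the test left out are given with each gene above.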

How the results depend on the processing

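In amiNaa10 against amiNaa15 replicates 3 and 4, the replicate block gave 2 calls in place of 4, the fit of only these groups 0 calls and leaving out single arrays 2 to 3 calls; the cause was not tested. Against all 4 arrays labelled amiNaa15, the replicate block gave 2 calls in place of 0. For amiNaa10 against the wild type control, a 2-fold minimum left 596 of 1485 calls and single arrays left out 618 to 1568 (618 without amiNaa10 replicate 2). For amiNaa15 replicates 3 and 4 against the control, the replicate block gave 60 calls in place of 107, and single arrays left out 0 to 65, with 0 without amiNaa15 replicate 4 and 20 without wild type control replicate 1. Deviations of same-numbered arrays from their label means correlated at 0.01 to 0.32 between amiNaa10 and amiNaa15. Against the wild type control these were -0.059 to 0.171 for amiNaa10 and -0.129 to 0.263 for amiNaa15. Arrays of different number were not compared, and the amiNaa15 mean mixed arrays of both sets. Whether the replicate numbers pair the samples therefore cannot be told from these values. In the description of 6 against 2 arrays, a 2-fold minimum counted 81 higher and 53 lower genes, the 1.5-fold minimum without the rule on overlap 602 and 581, and single arrays left out 316 to 1112 and 260 to 1263. Without both arrays that go against their label, 452 genes were lower. With cyclic loess 590 of the 609 genes were counted again, and with single arrays left out 389 to 579. Among 48 named genes no difference changed sign where the gene was counted. Of 480 values under other settings, 34 moved by more than the spread between the NAA10-low arrays, all with an NAA15-low array left out. The number of arrays, above all the 2 NAA15-low arrays, limits the precision.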
